A study of Arabidopsis thaliana with 18 samples.

Results

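The trichome birefringence-like (TBL) family of Arabidopsis was followed across the H3K9ac and H3K14ac peaks of hda9-1, pwr-2 and wild-type (WT) seedlings. Its members were taken as the protein-coding genes whose symbol or synonym in the gene annotation is TBR or TBL followed by digits. That rule gave 45 genes, TBL1 to TBL45, of 27432 protein-coding genes on the nuclear chromosomes. The founding gene TBR (AT5G06700) is listed in that annotation under its full name only and therefore lay outside the rule, and its values are given beside those of the family. The family was chosen from earlier results of these data, namely peak cover in hda9-1 against WT, so its calls are a description without a test.

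TBL proteins are plant-specific, and many of them are known as Golgi enzymes that place acetyl groups on the polysaccharides of the cell wall. ESK1 (TBL29), TBL3, TBL28 and TBL30 to TBL35 acetylate xylan, TBL23 to TBL26 mannan, and AXY4 (TBL27) and AXY4L (TBL22) xyloglucan. PMR5 (TBL44) and TBL10 act on pectins, and TBL38 acts as an esterase on the pectin homogalacturonan in the seed coat. TBR and TBL3 are also known from the cellulose of trichomes and secondary walls. The 2 marks, acetyl groups on lysine 9 (H3K9ac) and on lysine 14 (H3K14ac) of histone H3, are typical of transcribed genes and usually lie over their 5′ part.

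Chromatin came from whole 10-day-old seedlings of the Columbia ecotype, raised on agar plates at 23 °C under long days of 16 h light and 8 h dark. The mutant hda9-1 carries a lesion in HDA9, a histone deacetylase, pwr-2 carries a lesion in POWERDRESS, a SANT-domain protein, and WT is Columbia without either lesion. The comparisons ask how each lesion bears on the 2 histone marks. H3K9ac was immunoprecipitated in 2 libraries of each genotype and H3K14ac in 1, which leaves the H3K14ac values without a replicate check. Each mutation is represented by 1 allele, and the 9 input samples were not analysed here. The study calls the H3K9ac replicates biological and does not say whether they were grown apart, so p-values measure only the spread between these samples, which may be technical. The lists record acetylation and not transcripts, so peaks over HDA9 or POWERDRESS do not check the mutations. In whole seedlings, fewer cells carrying a mark and less of it per cell cannot be told apart.

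The libraries differed in yield along the genotypes. H3K9ac peaks held 12.3 and 18.2 M (mega) reads in hda9-1, 3.76 and 8.87 M in pwr-2, and 1.95 and 2.22 M in WT. They covered 28.7 and 30.5 Mb in hda9-1, 25.6 and 26.9 Mb in the pwr-2 libraries, and 23.1 and 23.7 Mb in WT. H3K14ac peaks held 0.875 M reads in hda9-1, 1.09 M in pwr-2 and 0.668 M in WT. The hda9-1 libraries were close to counting noise of each other, with a chi-square of 1.07 per degree of freedom over 3475 identical peaks, against 2.03 in pwr-2 and 1.37 in WT. That deviation still exceeded counting noise (chi-square p = 0.00232), and they were kept as 2 samples. Among the marker genes, 3 of 4 leaf genes carried H3K9ac in all 6 libraries, and the 2 seed and the 2 pollen genes had no peak in any library. The other leaf gene, LHCB1.3, was covered by 0 and 1230 bp in hda9-1, 0 bp in each pwr-2 library, and 716 and 516 bp in WT, and was called lost in pwr-2 by the rule given below. Of 3 root markers, SCR was marked in all 6 H3K9ac libraries, while SHR was marked only in the 2 WT libraries and PLT1 only in WT replicate 1. Summed over the 3 root markers, H3K9ac cover was 2214 and 2892 bp in hda9-1, 2892 bp in each pwr-2 library, and 6073 and 3000 bp in WT. SHR thus moved with genotype, whereas PLT1 differed between the WT libraries, and the part of root tissue in the results below was not tested. Of the trichome genes, GL2 was marked in all 6 H3K9ac libraries and GL1 in none.

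A gene was counted as marked in a library where peaks covered at least 50% of the first or the last 500 bp of the gene, since the annotation gives no strand. By this measure H3K9ac was present on 30 and 32 of the 45 TBL genes in hda9-1, on 27 and 28 in pwr-2, and on 25 and 24 in WT. Over all protein-coding genes the marked share was 57.4% and 60.2% in hda9-1, 51.7% and 56.8% in pwr-2, and 49.5% and 53.0% in WT. H3K14ac marked 24 TBL genes in hda9-1, 25 in pwr-2 and 26 in WT, which is 53.3%, 55.6% and 57.8% of the family. Among all protein-coding genes H3K14ac marked 47.3% in hda9-1, 48.6% in pwr-2 and 40.3% in WT. The number of TBL genes with H3K9ac was thus highest in hda9-1, as was the share of all protein-coding genes. Their H3K14ac counts of 24, 25 and 26 lay close together, with 1 library a genotype, and no order is read from them.

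**Figure D1:**
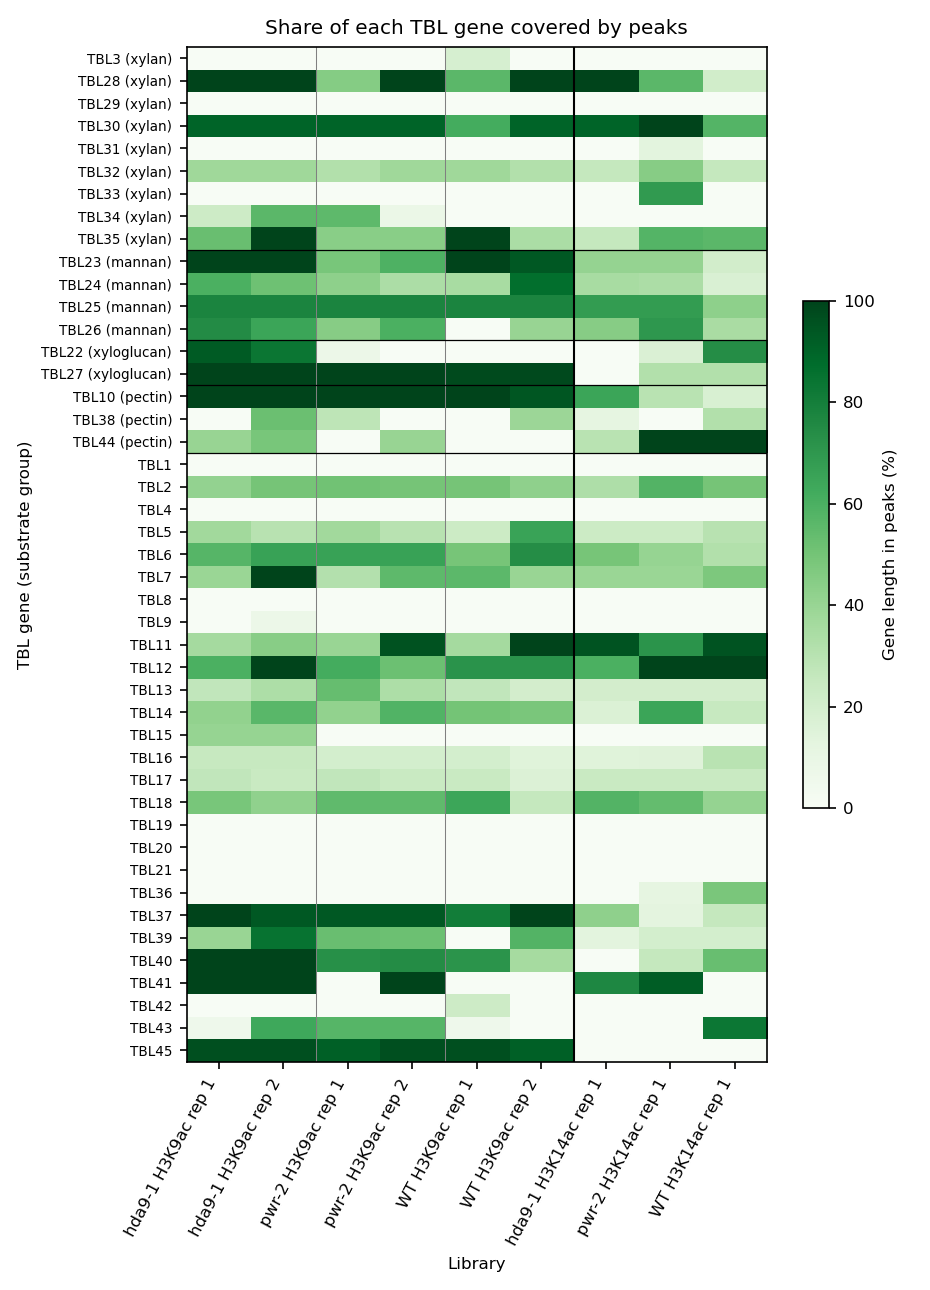
Share of each TBL gene's length (colour, percent) covered by peaks in the 9 libraries (columns), with genes ordered by the polysaccharide their product acts on and ungrouped genes below. The H3K9ac libraries stand left of the black line and the H3K14ac libraries right of it; 16 genes are marked throughout and 7 have no peak in any library.

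Most of the family had the same H3K9ac state in every library. All 9 libraries marked 16 of the 45 genes (35.6%, against 25.2% of protein-coding genes), and 21 genes (46.7%, against 39.8%) had H3K9ac in all 6 H3K9ac libraries. Of these 21 genes 13 were ungrouped, 3 were of the xylan, 3 of the mannan, 1 of the xyloglucan and 1 of the pectin group. The grouped genes marked in all 9 libraries were the mannan acetyltransferases TBL23 and TBL24 and the xylan acetyltransferases TBL28, TBL30 and TBL35. At the other end, 11 genes (24.4%, against 31.8%) carried H3K9ac in no library, and 7 of these (15.6%, against 23.7%) had no peak of either mark in any library. The 7 genes without a peak were TBL1, TBL4, TBL8, TBL19, TBL20, TBL21 and TBL29. TBL29 is ESK1 (AT3G55990), the main xylan acetyltransferase of secondary walls. The remaining 13 genes (28.9%, against 28.4%) were marked in 1 to 5 of the H3K9ac libraries.

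In WT, 18 TBL genes carried both marks (40.0%, against 30.2% of protein-coding genes), 13 carried neither (28.9%, against 36.6%), and 4 had H3K9ac in both libraries without H3K14ac (8.89%, against 13.6%). These 4 were TBL10, TBL25, TBL37 and TBL45. A further 5 genes had H3K14ac while neither H3K9ac library marked them, namely TBL22, TBL26, TBL36, TBL43 and TBL44. That state took 11.1% of the family and 4.66% of protein-coding genes. Among these 5 genes are a xyloglucan acetyltransferase, a mannan acetyltransferase and PMR5.

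By mean over the 2 WT libraries, the 5 TBL genes with the highest H3K9ac read density were 4 ungrouped genes and TBL32, a xylan acetyltransferase. Mean read density over the 2 WT libraries was 130.2 reads per kb of peak on TBL13, 123.5 on TBL14, 114.3 on TBL32 and 114.2 on TBL17, where TBL17 is also named YLS7. TBL18 lay between TBL32 and TBL17. The WT libraries spread widely on these genes, from 113.8 and 146.7 reads per kb on TBL13 to 86.7 and 142 on TBL32, so neither the order nor the choice of these 5 stands clear of the spread. In WT replicate 1 the densest peak over a TBL gene lay on TBL28, with 115.0 reads per kb. TBL13, TBL14, TBL17 and TBL18 were marked in all 9 libraries. TBL32 missed the call only in pwr-2 replicate 1, where peaks covered 1000 bp, against 1180 bp in pwr-2 replicate 2, 1180 bp in each hda9-1 library, and 1180 and 1000 bp in WT.

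H3K9ac was called gained where every mutant library and no WT library marked the gene, and lost in the reverse case. In hda9-1, 6 of the 45 TBL genes were called gained (13.3%), while 4.21% of all protein-coding genes were. Restricted to genes that neither WT library marked, this was 6 of 18 TBL genes (33.3%), against 10.2% of protein-coding genes. The 6 genes were TBL15, TBL22, TBL26, TBL34, TBL41 and TBL44, a member of each of the xylan, mannan, xyloglucan and pectin groups and a pair of ungrouped genes. No TBL gene was called lost, against 0.507% of protein-coding genes. H3K9ac cover was longer in every hda9-1 library than in any WT library for 9 genes (20.0% of the family, background 18.0%), namely the 6 gained genes, TBL16, TBL27 and TBL40. It was shorter in every hda9-1 library for none, against a background of 3.24%. The median change of cover over the family was 87.5 bp, and 0 bp over all protein-coding genes, and cover was on average longer for 26 TBL genes, equal for 13 and shorter for 6. These are 57.8%, 28.9% and 13.3% of the family, against 43.8%, 37.7% and 18.5% of protein-coding genes.

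**Figure D2:**
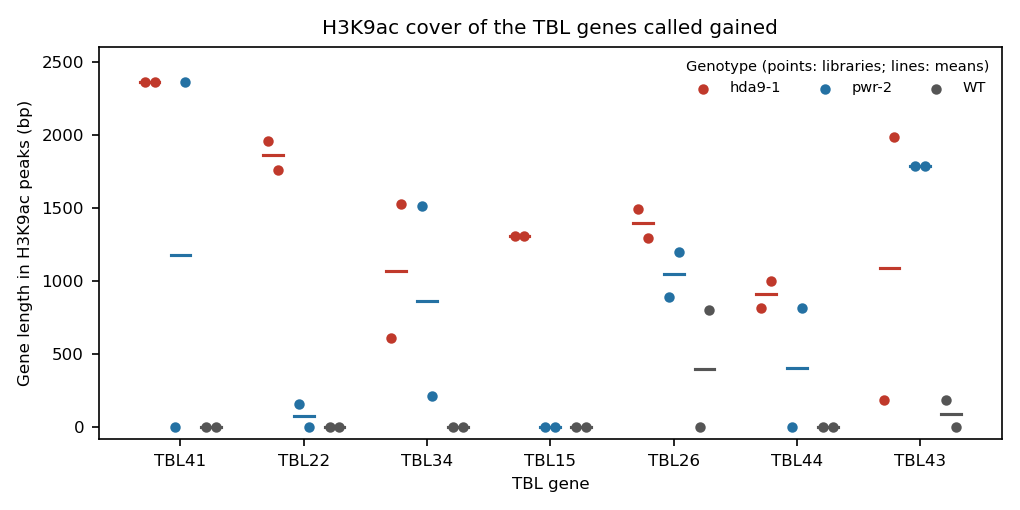
Gene length covered by H3K9ac peaks (bp, vertical axis) in each library (points) and the mean of each genotype's 2 libraries (lines) for the 7 TBL genes called gained in hda9-1 or pwr-2. In hda9-1 TBL41 is covered over its whole 2360 bp in both libraries, in pwr-2 in 1 of 2, and in WT in neither.

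TBL41 (AT3G14850) had the largest gain of cover in hda9-1. Its 2360 bp were covered completely in both hda9-1 libraries, by 0 and 2360 bp in pwr-2, and by 0 bp in both WT libraries. The peak lay at chr3:4993601-4997800 (TAIR10) in hda9-1 replicate 1, at chr3:4994801-4997800 in hda9-1 replicate 2 and at chr3:4993401-4998000 in pwr-2 replicate 2. These peaks were among the thinnest of their libraries. They held 264 and 396 reads per kb in hda9-1, at percentiles 0.420 and 1.80 of all peaks by read density, and 208 reads per kb in pwr-2 replicate 2, at percentile 2.03. The wider peaks, in hda9-1 replicate 1 and pwr-2 replicate 2, also reached the neighbouring gene AT3G14840.

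The xyloglucan acetyltransferase AXY4L (TBL22, AT3G28150, 2111 bp) was covered by 1959 and 1759 bp in hda9-1, by 159 and 0 bp in the pwr-2 libraries, and by 0 bp in both WT libraries. Both hda9-1 libraries thus stood above all 4 others. Its peak at chr3:10469401-10473800 in replicate 1 and chr3:10469401-10473600 in replicate 2 was of ordinary density, at percentiles 57.6 and 61.2, and extended over the neighbour AT3G28140. The other xyloglucan gene, AXY4 (TBL27, AT1G70230, 1874 bp), was already covered nearly throughout, by 1874 bp in each hda9-1 and each pwr-2 library and by 1835 and 1839 bp in WT.

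PMR5 (TBL44, AT5G58600, 2048 bp), a pectin acetyltransferase named for the powdery mildew resistance of its mutant, was covered by 817 and 1000 bp in hda9-1. It was covered by 0 and 817 bp in pwr-2 and by 0 bp in both WT libraries. The peaks at chr5:23685001-23685800 and chr5:23684801-23685800 in hda9-1 touched no other protein-coding gene and lay at percentiles 43.6 and 33.7 of read density. TBL22 and TBL44 therefore had the densest peaks among the 6 gained genes. In the pectin group TBL10 (AT3G06080) was covered over all 3398 bp in the 4 mutant libraries and by 3398 and 3210 bp in WT. TBL38 (AT1G29050) varied within every genotype, with 0 and 1555 bp in hda9-1, 828 and 0 bp in the pwr-2 libraries, and 0 and 1155 bp in WT.

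Among the mannan acetyltransferases only TBL26 was called gained. TBL26 (AT4G01080, 1997 bp) was covered by 1494 and 1294 bp in hda9-1, by 894 and 1200 bp in the pwr-2 libraries, and by 0 and 800 bp in WT. The peak of WT replicate 2, at chr4:467201-468000, lay in the middle of the gene and did not reach the call at either end, so TBL26 did have a peak in 1 WT library. The hda9-1 peaks, at chr4:466801-468400 and chr4:467001-468400, contained that stretch and lay at percentiles 10.6 and 21.6 of read density. The pwr-2 peaks lay at percentiles 31.2 and 25.4, and the shorter WT replicate 2 peak at 49.7. TBL25 (AT1G01430) was covered by 1823 bp in each of the 6 libraries. TBL23 (AT4G11090) was covered by 1951 bp in each hda9-1 library, by 951 and 1151 bp in pwr-2, and by 1951 and 1822 bp in WT. TBL24 (AT4G23790) had 1370 and 1170 bp in hda9-1, 970 and 770 bp in the pwr-2 libraries, and 800 and 1970 bp in WT, so each mutant overlapped with WT while hda9-1 lay above pwr-2.

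In the xylan group TBL34 (AT2G38320, 2726 bp) was called gained in hda9-1, with 614 and 1526 bp of cover, against 0 bp in both WT libraries. In pwr-2 it was covered by 1512 and 214 bp, in replicate 1 from the other end of the gene by the peak chr2:16044401-16056800. The hda9-1 peaks with the longest overlap were broad, at chr2:16057401-16066600 and chr2:16057201-16068200, and extended over the neighbour AT2G38330. In hda9-1 replicate 2 the gene had 2 peaks, the other one toward the end covered in pwr-2 replicate 1. Of the other 8 xylan genes, TBL28, TBL30 and TBL35 had H3K9ac in all 6 libraries, TBL32 in 5, and TBL29, TBL31 and TBL33 in none. TBL3 (AT5G01360) was marked only in WT replicate 1, where 385 of its 2080 bp were covered.

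TBL15 (AT2G37720, 3230 bp), an ungrouped member, was covered by 1311 bp in both hda9-1 libraries and by 0 bp in all pwr-2 and WT libraries. The same interval, chr2:15820001-15822600, was called in both hda9-1 libraries with 669 and 946 reads, and it also overlapped AT2G37730. Its read density was at percentiles 0.198 and 0.188, the thinnest of any peak over a marked TBL gene in these libraries. Several of the gained genes shared their peak with a neighbour, as did many other marked TBL genes. The peak over a marked TBL gene also overlapped another protein-coding gene in 19 of 30 and 19 of 32 cases in hda9-1. The counts were 12 of 27 and 14 of 28 in pwr-2, and 12 of 25 and 12 of 24 in WT. Sharing was not counted over all marked protein-coding genes, so it is not given as a trait of the family.

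Read density is given beside these gains because the hda9-1 libraries held the most reads. Scaled to the mean number of reads in WT peaks, the gained peaks of hda9-1 corresponded to 43.8 and 41.8 reads per kb on TBL15 and to 44.9 and 45.5 on TBL41. On TBL34 they corresponded to 55.6 and 50.9 reads per kb, on TBL26 to 56.0 and 59.9, on TBL44 to 73.8 and 65.2, and on TBL22 to 80.4 and 77.2. The thinnest peak called in WT held 45.0 reads per kb in replicate 1 and 47.6 in replicate 2, the 5th percentile was 60.0 and 64.5, and the median 88.3 and 97.5. These WT values are at each library's own depth, and scaled in the same way the WT medians were 94.6 and 91.5. Against the unscaled WT values, TBL22 and TBL44 lay above the 5th percentile of both WT libraries. TBL34 and TBL26 lay between the thinnest WT peaks and those percentiles, and TBL15 and TBL41 below the thinnest peak of at least 1 WT library. The WT replicate 2 peak on TBL26 held 91.5 reads per kb when scaled. It was thus denser than the TBL26 peaks of hda9-1 and of pwr-2 (74.4 and 68.8 when scaled). Over all 1154 protein-coding genes gained in hda9-1 the median density percentile was 27.5 and 31.0, against 48.0 and 47.2 for the other marked genes. The part of depth in these gains was not tested. When the densest peaks of each library were kept up to the covered length of the smallest library, 2 TBL genes, TBL22 and TBL44, were called gained in hda9-1 (background 2.58%), and TBL24 and TBL32 were called lost (background 2.64%).

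**Figure D3:**
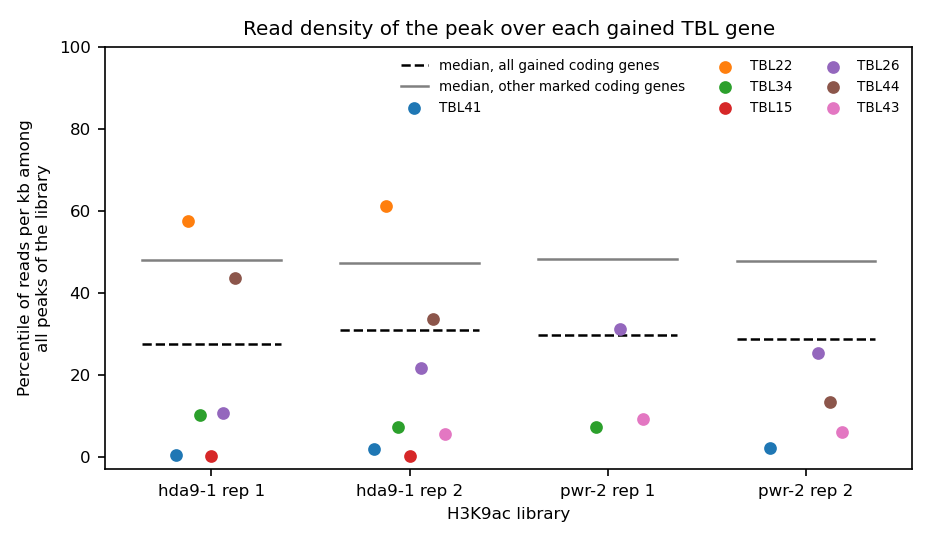
Read density of the H3K9ac peak over each gained TBL gene (points), as a percentile of all peaks of the same mutant library (vertical axis), with the medians of all gained (dashed) and all other marked (grey) protein-coding genes. TBL15 and TBL41 sit at or below percentile 2.03, and TBL22 lies at 57.6 and 61.2 in hda9-1.

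In pwr-2, 2 of the 45 TBL genes were called gained in H3K9ac (4.44%, background 2.30%), and both were among the 18 that neither WT library marked (11.1%, background 5.59%). The comparison uses the same WT libraries as that of hda9-1. The 2 genes were TBL26, given above, and TBL43. TBL43 (AT2G30900, 3129 bp) was covered by 1787 bp in both pwr-2 libraries, against 187 and 0 bp in WT, and by 187 and 1987 bp in hda9-1. Its pwr-2 peak, chr2:13147601-13151200, also overlapped AT2G30890 and lay at percentiles 9.23 and 6.15 of read density. TBL41 and TBL44 were marked in pwr-2 replicate 2, the deeper library, and not in replicate 1, and without replicate 1 the count of gained genes was 4.

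No TBL gene was called lost in pwr-2, against 0.674% of protein-coding genes. TBL3 and TBL42, marked only in WT replicate 1, were counted as lost in each mutant when WT replicate 2 was left out, which gave 2 losses. TBL32 was counted as lost in pwr-2 without pwr-2 replicate 2. Cover was longer in every pwr-2 library than in any WT library for 6 TBL genes (13.3%, background 9.76%), TBL13, TBL26, TBL27, TBL34, TBL40 and TBL43. It was shorter in every pwr-2 library for TBL12 and TBL23 (4.44%, background 5.32%). The median change over the family was 0 bp, with longer mean cover on 19 genes, equal on 14 and shorter on 12 (42.2%, 31.1% and 26.7%, against 33.0%, 38.3% and 28.7% of protein-coding genes). TBL40 (AT2G31110, 3928 bp) was longer in both mutants, with 3928 bp in each hda9-1 library and 2856 and 2928 bp in pwr-2, against 2800 and 1400 bp in WT.

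Between the mutants, TBL15 and TBL22 were marked in both hda9-1 and in neither pwr-2 library (4.44% of the family, background 1.41%). No TBL gene showed the reverse pattern, against 0.324% of protein-coding genes. Covered lengths were 1311 and 1311 bp in hda9-1 against 0 and 0 bp in pwr-2 for TBL15, and 1959 and 1759 bp in hda9-1 against 159 and 0 bp in pwr-2 for TBL22.

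H3K14ac calls went in both directions. In hda9-1, 4 TBL genes were called gained (8.89%, background 12.4%) and 6 lost (13.3%, background 5.37%). The 4 gains are 21.1% of the 19 TBL genes unmarked in WT, against 20.7% of such protein-coding genes. The 6 losses are 23.1% of the 26 TBL genes that WT marked, and 13.3% of protein-coding genes so marked were lost. In pwr-2, 3 were gained (6.67%, background 13.0%) and 4 lost (8.89%, background 4.80%). Among genes that could be gained or lost these were 15.8% and 15.4%, against 21.8% and 11.9% of protein-coding genes. With 1 library a genotype none of these counts has a replicate check, and both mutants were set against the same WT library.

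The xyloglucan acetyltransferases were both called lost in hda9-1. TBL22 was covered by H3K14ac over 0 bp in hda9-1, 359 bp in pwr-2 and 1559 bp in WT, and TBL27 over 0 bp in hda9-1, 600 bp in pwr-2 and 600 bp in WT. TBL22 thus had H3K9ac peaks in hda9-1 without H3K14ac, and an H3K14ac peak in WT without H3K9ac. TBL43 had 0 bp of H3K14ac in hda9-1 and in pwr-2, and 2600 bp in WT, while its H3K9ac cover was longer in pwr-2. TBL40 had 0 bp in hda9-1, 1000 bp in pwr-2 and 2072 bp in WT. TBL36 (AT3G54260), which had no H3K9ac peak in any library, had 0 bp in hda9-1, 230 bp in pwr-2 and 967 bp in WT. The homogalacturonan esterase TBL38 had 355 bp in hda9-1, 0 bp in pwr-2 and 955 bp in WT, and was called lost in pwr-2 only. TBL39, the remaining lost gene, was called lost in both mutants, with 400 bp in hda9-1, 600 bp in pwr-2 and 600 bp in WT. Its cover was equally long in pwr-2 and WT, so that call rests on where the peak lies, and in each mutant it was kept under 2 of 5 alternatives. Several of the lost calls rest on thin WT peaks. By read density these lay at percentile 1.88 on TBL43, 4.64 on TBL40, 4.72 on TBL36, 8.11 on TBL38 and 17.9 on TBL22. On TBL27 and TBL39 the WT peak lay at percentiles 62.2 and 88.9.

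Genes called gained in H3K14ac were TBL10, TBL25 and TBL41 in both mutants and TBL37 in hda9-1. TBL41 was covered over 1800 bp in hda9-1 and over 2175 bp in pwr-2, against 0 bp in WT. Its H3K14ac peaks were thin, at percentiles 10.2 of read density in hda9-1 and 3.97 in pwr-2. TBL41 was the only TBL gene called gained in both marks in a mutant. TBL10, which acts on rhamnogalacturonan I, had 2200 bp in hda9-1, 1000 bp in pwr-2 and 600 bp in WT. The mannan acetyltransferase TBL25 had 1600 bp in each mutant and 1000 bp in WT. TBL37 (AT2G34070) had 1339 bp in hda9-1, 400 bp in pwr-2 and 800 bp in WT. TBL10, TBL25 and TBL37 had H3K9ac in all 6 libraries, so in these 3 the H3K14ac call differed where H3K9ac did not. In hda9-1 their H3K14ac peaks lay at percentiles 25.6, 32.5 and 8.06 of read density. In pwr-2 the peaks lay at 81.6 on TBL10 and 70.4 on TBL25.

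**Figure D4:**
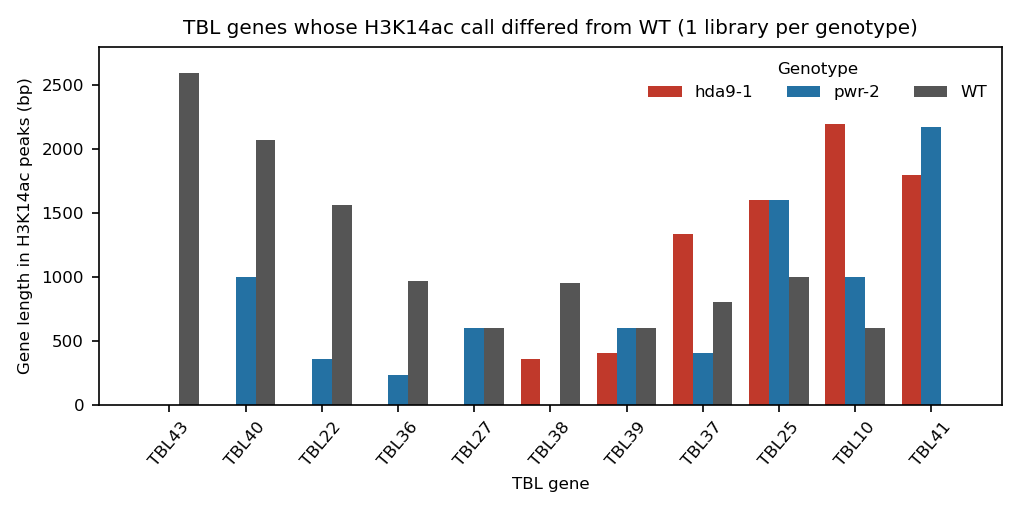
Gene length covered by H3K14ac peaks (bp, bars) in hda9-1, pwr-2 and WT, 1 library each, for the 11 TBL genes whose call differed between a mutant and WT. TBL43 has 2600 bp in WT and none in either mutant, whereas TBL41 has 1800 and 2175 bp in the mutants and none in WT. These peaks are thin, at percentile 1.88 of read density on TBL43 and at 10.2 and 3.97 on TBL41.

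Between the mutants TBL37 and TBL38 were marked by H3K14ac in hda9-1 only (4.44% of the family, background 5.60%), and TBL22, TBL27 and TBL40 in pwr-2 only (6.67%, background 6.82%). TBL44, gained in H3K9ac in hda9-1, kept its H3K14ac call there, with 600 bp in hda9-1, 2048 bp in pwr-2 and 2048 bp in WT. TBL26 had H3K14ac in all 3 genotypes, with 894 bp in hda9-1, 1400 bp in pwr-2 and 694 bp in WT. TBL15 and TBL34 had no H3K14ac peak in any genotype. TBL45 had none either, although 3586 and 3586 bp in hda9-1, 3386 and 3586 bp in the pwr-2 libraries, and 3586 and 3400 bp in WT were covered by H3K9ac. Of the 6 genes gained in H3K9ac in hda9-1, H3K14ac was thus gained on TBL41, lost on TBL22, present throughout on TBL26 and TBL44, and absent throughout on TBL15 and TBL34.

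Where H3K9ac peaks were present in all 6 libraries, their read counts could be compared. Peaks were merged into 12753 regions, of which 8332 had a peak in every library, and 27 of these, holding 28 TBL genes, overlapped the family. Such a region can extend over neighbouring genes. The region of TBL34, for instance, spans 16400 bp at chr2:16040401-16056800 and has peaks in WT outside the gene. It ends before the hda9-1 peaks whose positions are given above for TBL34, but holds the other TBL34 peak of hda9-1 replicate 2. The gained genes TBL15, TBL26, TBL41, TBL43 and TBL44 lay in no tested region, so the read counts do not bear on their gains. With edgeR's quasi-likelihood test and Benjamini-Hochberg adjustment at 0.05, 0 of the 8332 regions (0%) were called in hda9-1 against WT, in pwr-2 against WT, or in hda9-1 against pwr-2. The shares with an unadjusted p under 0.05 were 12.2%, 14.7% and 3.89% of all regions in these 3 comparisons, and 1, 2 and 0 of the 27 TBL regions. The smallest adjusted p of edgeR for a TBL region was 0.329 in hda9-1 and 0.258 in pwr-2. The region of the gained gene TBL22, chr3:10465001-10473800, also overlaps UMAMIT44 and AT3G28140. Its WT peaks, 5400 and 5000 bp long in sum, lay outside TBL22. The region's log2 fold change was 0.16 ± 0.14 (SE) in hda9-1 (edgeR adjusted p = 0.702) and 0.22 ± 0.14 in pwr-2 (edgeR adjusted p = 0.507). In hda9-1 against pwr-2 it was -0.06 ± 0.14. These reads include the neighbours, so they do not isolate the gain on TBL22. DESeq2 called 154, 204 and 28 regions, none of which held a TBL gene.

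Read counts were higher in hda9-1 in 16 of the 27 TBL regions and lower in 11, with a median log2 fold change of 0.05, and 49.0% of all regions were higher. In pwr-2 they were higher in 18 and lower in 9, with a median of 0.01, and 49.6% of all regions were higher. Per covered base the balance turned, with 11 of the 27 higher in hda9-1 (median -0.05) and 13 in pwr-2 (median -0.02). The TBL region with the smallest p in both mutants was that of the mannan acetyltransferase TBL25, at chr1:157001-165000. It also overlaps AT1G01440 and AT1G01450, so its reads are not those of TBL25 alone. The region's TMM-scaled CPM were 342.7 and 341.2 in hda9-1, 318.7 and 355.5 in pwr-2, and 418.8 and 449.4 in WT. Every mutant library lay below both WT libraries. The log2 fold change was -0.34 ± 0.11 (SE) in hda9-1 (edgeR adjusted p = 0.329) and -0.36 ± 0.11 in pwr-2 (edgeR adjusted p = 0.258). Per covered base the same region gave -0.05 in hda9-1 and 0.11 in pwr-2, so the difference did not hold on that scale.

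The next smallest p was that of TBL2 in hda9-1 and of TBL16 in pwr-2. TBL2, an ungrouped gene, had 52.4 and 57.1 CPM in hda9-1, 70.3 and 58.1 in pwr-2, and 67.3 and 82.4 in WT, a log2 fold change of -0.45 ± 0.20 in hda9-1 (edgeR adjusted p = 0.423) that turned to 0.14 per covered base. TBL16 had 56.9 and 52.0 in hda9-1, 61.4 and 53.4 in pwr-2, and 46.7 and 33.5 in WT, a log2 fold change of 0.52 ± 0.22 in pwr-2 (edgeR adjusted p = 0.340) and of 0.43 per covered base. Both miss the threshold. Between the mutants, TBL7 (0.60 ± 0.33) and TBL13 (-0.34 ± 0.19) had the smallest p, each with an adjusted p of 0.998 in edgeR. Per covered base both turned sign, to -0.40 for TBL7 and 0.27 for TBL13.

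**Figure D5:**
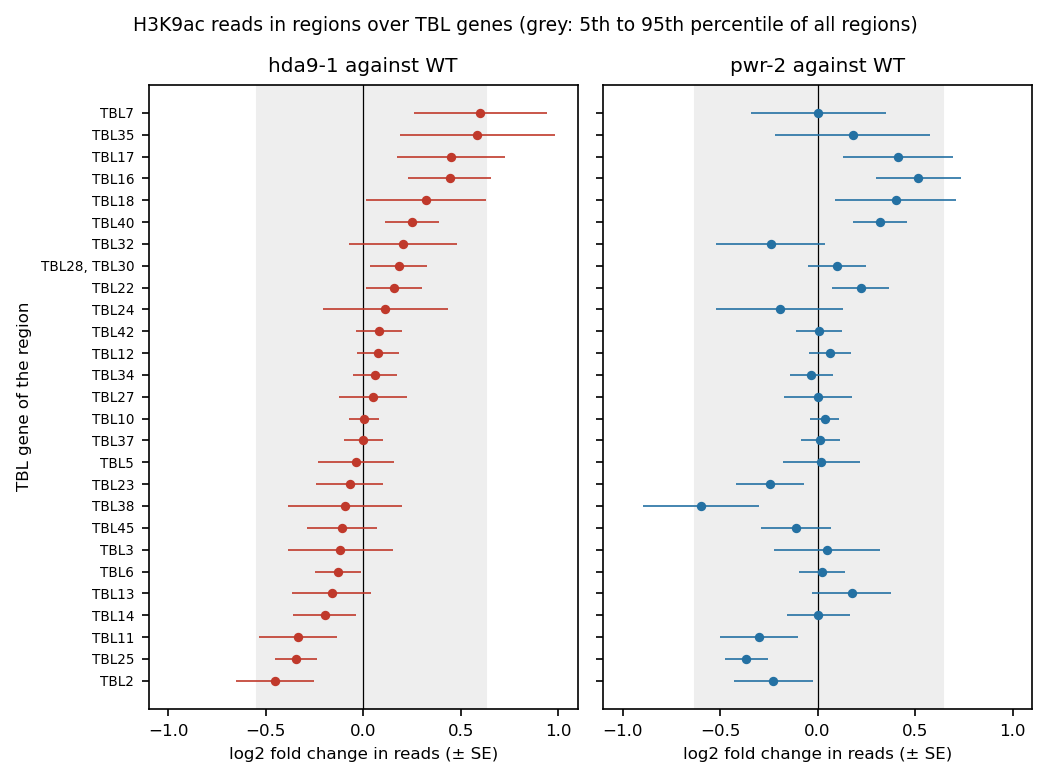
Log2 fold change of H3K9ac reads (points, ± SE, edgeR) in the 27 regions that overlap TBL genes, for hda9-1 against WT (left) and pwr-2 against WT (right); the grey band spans the 5th to 95th percentile of all 8332 regions. No region passed the adjusted threshold, and the region of TBL25, which also overlaps neighbouring genes, lies at -0.34 and -0.36. Of the TBL genes called gained in H3K9ac, only TBL22 and TBL34 have a region here, and in both regions the WT peaks lie outside the TBL gene.

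Other genes that build or acetylate wall polysaccharides were counted the same way. Of 28 such genes, 17 had H3K9ac in all 6 libraries and 5 in none, states that held 39.8% and 31.8% of protein-coding genes. In hda9-1, 1 of the 28 was called gained in H3K9ac and 0 lost (background 4.21% and 0.507%). In pwr-2, 1 was gained and 1 lost (background 2.30% and 0.674%). The gained gene was in both mutants IRX9 (AT2G37090), a glycosyltransferase of the xylan backbone, with 1976 and 969 bp in hda9-1, 1976 and 969 bp in the pwr-2 libraries, and 0 and 0 bp in WT. The lost gene was CESA4 (AT5G44030), a cellulose synthase of secondary walls, with 811 and 3211 bp in hda9-1, 600 and 1200 bp in the pwr-2 libraries, and 1211 and 2411 bp in WT. Of RWA1 to RWA4 and AXY9, which serve acetylation of wall polymers upstream of the TBL enzymes, 4 of 5 carried H3K9ac in all 6 libraries. RWA1 was the exception, with 722 and 800 bp in hda9-1, 800 and 722 bp in the pwr-2 libraries, and 0 and 400 bp in WT. H3K14ac calls on the 28 genes were 5 gained and 3 lost in hda9-1 (background 12.4% and 5.37%). In pwr-2 they were 6 gained and 2 lost (background 13.0% and 4.80%). TBR itself was covered by H3K9ac over all 3140 bp in the 4 mutant libraries and over 2387 and 2587 bp in WT, and by H3K14ac over 1000 bp in hda9-1, 1400 bp in pwr-2 and 1400 bp in WT.

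Beyond the family, 60 protein-coding genes had the same marked state as TBL41 in all 9 libraries. By the sum of absolute differences in covered length over the 9 libraries, the nearest was APL4 (AT2G21590, 4452 bp), followed by AT5G28830 (4455 bp), DRIP2 (AT2G30580, 4855 bp), DAR6 (AT5G66620, 5645 bp) and AT3G28650 (5670 bp). APL4 had 1986 and 1986 bp of H3K9ac cover in hda9-1, 1200 and 481 bp in the pwr-2 libraries and 0 bp in both WT libraries. Its H3K14ac cover was 1281 bp in hda9-1, 2281 bp in pwr-2 and 0 bp in WT.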

How the data were processed

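Per the labels' protocols, sonication gave pieces of about 200 bp, and libraries were cut from a gel at 300 to 400 bp. The submitters' processing notes name Bowtie, SICER and TAIR10, with the versions not given in the sources used here. The 9 deposited peak lists, 1 per library, give positions and a whole number per peak, without a header. That deposited number, which the authors made before any step here and which has no normalization, was read as a count of reads, since it followed peak width (Spearman's rho 0.797 to 0.938 across peaks). Duplicates and thresholds are not described. A title term, hdac, was taken as hda9-1, the genotype label.

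Gene bounds are those of RefSeq for TAIR10.1, without strand; 45 of 45 combinations of library and chromosome placed peaks on genes best without a shift. Printed positions are those of peaks, 1-based, on TAIR10. Cover is the length of a gene inside peaks; a peak in several genes counts for each.

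Members, lists and tests were chosen with earlier results of these data known. Region counts were tested with edgeR 4.0.16 (all 6 libraries, TMM factors, no block) and DESeq2 1.42.0 as an alternative. Tested on simulated data for hda9-1 against WT over 8332 regions, edgeR called 2% of regions set to a 1.5-fold rise, 50% at 2-fold, 100% at 4-fold and 54% at 0.5-fold, with 2 calls among unchanged regions. The biological coefficient of variation was 0.184. The simulation gave every region this same value, so its shares need not hold for a given region. Among TBL regions the SE in hda9-1 against WT ran from 0.08 on TBL10 to 0.40 on TBL35. Density percentiles rank a peak's reads per kb within its library.

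Named with values were TBL genes with a differing H3K9ac call, up to 10 genes with a differing H3K14ac call, by difference of cover, the 5 densest in WT, those without any peak, those of known substrate, and the 2 smallest edgeR p per comparison. TBL12, TBL36, TBL39, TBL40, TBL42 and TBL45, the neighbours and single wall genes were otherwise named after their values were seen, to complete a count.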

Additional observations from a re-analysis of the deposited data

How the results depend on the processing

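The share of an end to be covered was set to 25% or 75%, or replaced by 50% of the whole gene; the 25% of peaks lowest in read density was removed from each library (stricter peaks); or equal covered lengths were used. H3K9ac gains in hda9-1 numbered 3 over the whole gene (TBL22, TBL26, TBL41), where 3.05% of all protein-coding genes were gained. They numbered 3 with stricter peaks (background 4.41%) and 2 at equal covered length (background 2.58%). With 1 library left out they numbered 6 to 7, while the background was 5.22% to 9.82%, against 4.21% with all libraries. Losses in hda9-1 numbered 1 with stricter peaks (background 1.37%) and 2 at equal covered length (background 2.64%). They numbered 0 to 2 when 1 library was left out (background 0.7% to 2.92%). TBL22 was called gained under 9 of 9 alternatives, TBL44 under 8, TBL41 under 7, and TBL15, TBL26 and TBL34 under 6. For TBL26 the cover difference of hda9-1 and WT turned to -400 bp with stricter peaks. H3K9ac gains in pwr-2 numbered 1 at 25% (TBL34), 4 at 75%, 1 over the whole gene and 1 at equal covered length, and 3 to 4 when 1 library was left out. Losses in pwr-2 numbered 1 with stricter peaks and 1 at equal covered length (TBL32), and 0 to 2 when 1 library was left out. H3K14ac gains in pwr-2 numbered 5 at 25% and 8 over the whole gene, and losses 2 at 25%. H3K14ac counts in hda9-1 stayed within 1.5 times under these alternatives, but with other members: of the 4 gained and 6 lost genes, 1 and 3 were shared at 75% of an end, 3 and 3 over the whole gene, and 2 and 3 with stricter peaks. TBL40 was called lost under 5 of 5 alternatives, TBL10, TBL25 and TBL22 kept their hda9-1 calls under 4, TBL27, TBL36, TBL37, TBL41 and TBL43 under 3, and TBL39 under 2. DESeq2 called 154, 204 and 28 regions in hda9-1 against WT, pwr-2 against WT and hda9-1 against pwr-2; per covered base 1, 1 and 0 were called. The causes were not tested.

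With the replicate number as a block, 0 regions were called in each comparison. Same-numbered libraries deviated together with correlations of 0.08, 0.172 and 0.163, and the numbers were not taken to pair them. DESeq2 size factors, a minimum of 100 reads, leaving out 1 library (the lone library then assumed to vary like the others) and, added after seeing the data, summing the hda9-1 libraries into 1 sample also gave 0. The number of libraries and 0.668 to 1.09 M reads in peaks limit the precision of H3K14ac.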
